A study of Homo sapiens with 9 samples.

Results

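The UGT2B glucuronosyltransferases were described here as 7 genes, UGT2B4, UGT2B7, UGT2B10, UGT2B11, UGT2B15, UGT2B17 and UGT2B28, taken by symbol from the array annotation. Each had 1 row among the 20893 transcript clusters tested, of which 17705 rows carried a symbol. The family was chosen with its values on these arrays known, so its levels and differences are a description: calls by limma are stated only as met or not met, and support nothing about the family. RNA came from L-1236, an established cell line from a Hodgkin lymphoma, and was measured on 9 human Clariom S arrays, 3 for each of 3 groups. The control, v2, carried the lentiCRIPSPR_v2 vector and is called wild type in its titles. In clone g2_1 the vector held guide g2, which targets the second LTA exon. In clone g3_4 it held guide g3, which targets the fourth exon. All 3 groups thus held the vector, and all were grown in normal medium for 72 h before RNA was taken. The knockout clones had been kept before that in medium conditioned by L-1236 cells, which the labels do not state for the control. Each guide is represented by 1 single-cell clone, so guide and clone cannot be told apart. The labels do not state whether the control is a single-cell clone as well, so knockout and single-cell cloning cannot be told apart either. Whether the 3 arrays of a group stem from separate cultures is not stated in the labels, so p-values measure only the spread between these arrays, and that spread may be technical. Both clones are compared with the same 3 control arrays.

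Enzymes of the UGT2B family sit in the endoplasmic reticulum, where they join glucuronic acid from UDP-glucuronic acid to steroids, bile acids and drugs. The glucuronide is more soluble in water and leaves the cell through transporters. The family is best known from liver, gut and prostate, and UGT2B15 and UGT2B17 are the members known for clearing androgens in the prostate. The genes lie in 1 cluster on chromosome 4, which arose by gene duplication, and UGT2B15 and UGT2B17 are close relatives in sequence.

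LTA, the targeted gene, had a log2 signal of 11.07 to 11.58 on the control arrays, 7.11 to 7.97 in g2_1 and 6.61 to 7.25 in g3_4 (adjusted p = 1.5e-06 and 4.2e-07 in limma). The labelled cell type was checked against 9 markers of Hodgkin and Reed-Sternberg cells, all measured, whose control means ran from 6.32 to 11.83. Their summed log2 level was 82.63 to 84.49 on the control arrays and 77.34 to 82.16 on the clone arrays. Of these 9 genes TNFRSF8, which encodes CD30, rose in limma (adjusted p under 0.05 and same direction in both clones), and CD274 and CCL22 fell. By this rule 4.48% of all clusters rose and 6.97% fell. TRAF1 (0.96 in g2_1 and 0.44 in g3_4, adjusted p = 7.8e-04 and 0.056 in limma) did not pass, nor did CCL17 (-0.92 and -0.98, adjusted p = 0.055 and 0.042). TRAF1 passed as higher in 7 of 19 alternative settings and CCL17 as lower in 3 of 18. CD70 went in opposite directions, with differences from control of 1.41 in g2_1 (adjusted p = 0.0043 in limma) and -0.94 in g3_4 (adjusted p = 0.036). The median of all transcript clusters was 6.27 to 6.29 on control arrays and 6.15 to 6.19 on clone arrays, and centring arrays on their median moved the median log2 difference of all clusters from 0.035 to 0.14 in the clones averaged. The values hold no detection flags, so the first quartile of the arrays, at 4.64 (4.62 to 4.66 by array), is used as a mark for the low end of the scale.

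Of the 7 genes, UGT2B17 and UGT2B15 were far above that mark in control cells, and both were under it in each knockout clone. UGT2B10, UGT2B7, UGT2B11 and UGT2B28 had means under it in all 3 groups, and UGT2B4 had 5.01 in the control, 4.81 in g2_1 and 4.58 in g3_4. Both of the high genes met the call rule in each clone, an adjusted p under 0.05 in limma with a log2 difference of at least 1, which makes 2 of 7 called lower and 0 called higher in each clone. Over all transcript clusters 3.24% were called lower in g2_1 and 3.19% in g3_4, with 2.9% called lower in both, and 0.943% and 1.04% were called higher. In either direction 4.18% were called in g2_1, 4.23% in g3_4 and 4.17% with the clones averaged. Since the family was chosen on this contrast, nothing is read from that comparison.

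UGT2B17 (transcript cluster TC0400012923.hg.1), which glucuronidates testosterone and dihydrotestosterone, had a log2 signal of 9.40, 8.38 and 8.74 on control arrays 1, 2 and 3. It was 4.38, 4.31 and 4.34 in g2_1 and 4.34, 4.19 and 4.31 in g3_4. The groups did not overlap, and the lowest control array lay 4.0 log2 units above the highest clone array. The mean was 8.84 ± 0.52 (SD, n = 3) in the control, against 4.34 ± 0.04 for g2_1 and 4.28 ± 0.08 for g3_4. The log2 difference from control was -4.50 in g2_1 (SE 0.20, 95% interval -4.94 to -4.05) and -4.56 in g3_4 (SE 0.20, interval -5.01 to -4.11). Among all transcript clusters these were the falls ranked 43 and 41 in their comparisons, and 40 clusters, UGT2B17 included, fell by at least as much in both. The SEs and intervals rest on 1 spread pooled over the 3 groups, although the SDs of the groups were unequal. They are thus too narrow for the spread of the control arrays, here and for UGT2B15, UGT2B4, CYP1B1 and CYP19A1.

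UGT2B15 (TC0400012924.hg.1), whose product acts on dihydrotestosterone and its metabolites, followed the same pattern. Its log2 signal was 8.54, 7.47 and 7.56 on the control arrays, 4.49, 4.21 and 4.37 in g2_1 and 4.21, 4.23 and 4.28 in g3_4. Again all clone arrays lay below all control arrays, with a gap of 2.98. Such separation was seen for 2 of the 7 members and for 10.6% of all transcript clusters. The group means were 7.86 ± 0.59 (SD, n = 3), 4.36 ± 0.14 and 4.24 ± 0.04. The difference from control was -3.50 in g2_1 (SE 0.23, interval -4.01 to -2.99) and -3.62 in g3_4 (SE 0.23, interval -4.13 to -3.11), ranked 97 and 89 among falls.

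For both genes control array 1 was the highest and control array 2 the lowest. Array 1 of each group also had the highest RNA integrity number, 10 against 9.5 to 9.6, and the part of this in the levels was not tested. Without the arrays numbered 1 the log2 difference of UGT2B17 was -4.24 in g2_1 and -4.31 in g3_4, and that of UGT2B15 was -3.22 and -3.26. All 12 clone values of the pair were under the first quartile of their own array, so the differences end at the low end of the scale and their size is bounded there. In these bulk samples fewer cells with the transcript and less RNA per cell cannot be told apart. Signal of 1 gene read by the probes of the other was not tested, since probe sequences were not used here, so the pair cannot be counted as 2 independent measurements.

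**Figure D1:**
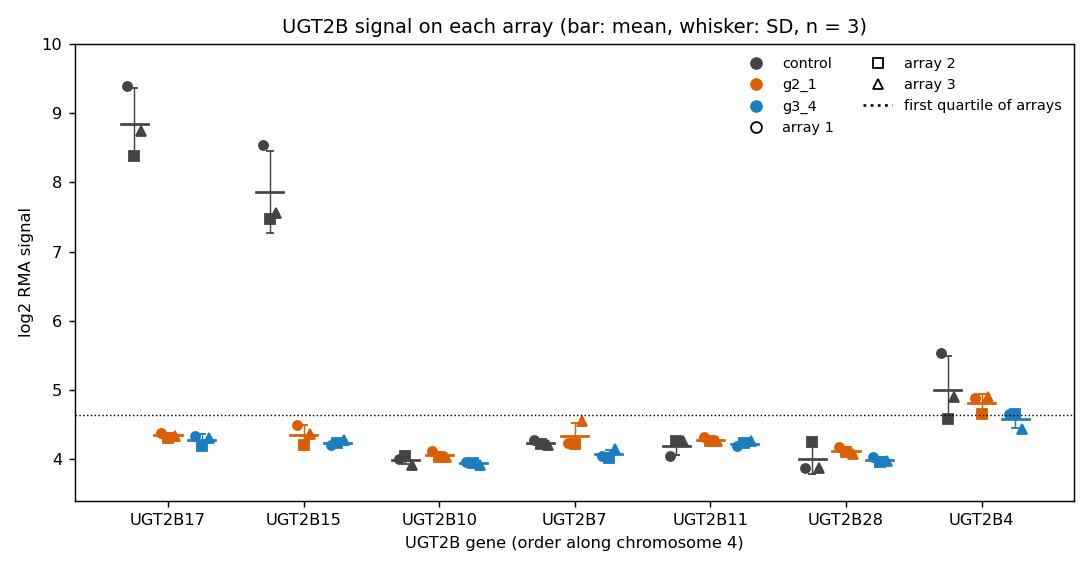
Log2 RMA signal (y axis) of the 7 UGT2B genes (x axis) on each of 9 arrays, with colours for groups, marker shapes for array numbers, a bar for the mean and a whisker for the SD of 3 arrays; the dotted line is the first quartile of the arrays at 4.64. Control arrays of UGT2B17 (8.38 to 9.40) and UGT2B15 (7.47 to 8.54) stand apart from every other point.

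Among these other 5 genes, 38 of 45 values were under the first quartile of their own array, and the 7 that were not were all of UGT2B4, which acts on bile acids. UGT2B4 had a log2 signal of 5.54, 4.58 and 4.90 on the control arrays, 4.88, 4.66 and 4.90 in g2_1 and 4.66, 4.66 and 4.43 in g3_4. The groups overlapped, and control array 1 was the highest here too. The difference from control was -0.19 in g2_1 (SE 0.20, interval -0.64 to 0.25) and -0.42 in g3_4 (SE 0.20, interval -0.87 to 0.02). Without the arrays numbered 1 these differences were 0.04 and -0.20.

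UGT2B7, the enzyme known for glucuronidating morphine and oestrogens, stayed between 4.02 and 4.55 on the 9 arrays. UGT2B10, known for joining glucuronic acid to nitrogen atoms of nicotine and its metabolite cotinine, ranged from 3.92 to 4.12. UGT2B11 ranged from 4.04 to 4.32 and UGT2B28, which acts on steroids, from 3.88 to 4.25. With UGT2B4 included, the differences of these 5 genes lay between -0.19 and 0.12 in g2_1 and between -0.42 and 0.03 in g3_4. Their 95% intervals reached from -0.64 to 0.37 in g2_1 and from -0.87 to 0.24 in g3_4. At values this low, changes below the reach of the probes could not be seen, so these intervals exclude no size of change in RNA level.

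To compare the start regions of the cluster, the 250 bases before the gene start are printed for the 4 members held in the RefSeq promoter table (GRCh38.p14): UGT2B15, which was high in control cells, and UGT2B10, UGT2B7 and UGT2B11, which were low in all groups. Capitals mark matches of the motifs searched, the TATA box letters TATAAA in UGT2B10 and UGT2B11 and those of the C/EBP motif in UGT2B7, and UGT2B15 holds none. Only the exact letters TATAAA were searched, so other forms of a TATA box are not marked and their absence was not tested. The unmarked letters atataagtatgag, near the gene start, are shared by UGT2B15, UGT2B10 and UGT2B11.
UGT2B15, chr4:68670653-68670902, minus strand: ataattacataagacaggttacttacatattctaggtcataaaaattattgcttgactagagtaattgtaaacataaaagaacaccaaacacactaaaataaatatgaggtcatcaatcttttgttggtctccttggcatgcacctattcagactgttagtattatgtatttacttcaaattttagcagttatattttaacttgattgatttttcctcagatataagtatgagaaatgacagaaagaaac
UGT2B10, chr4:68815744-68815993, plus strand: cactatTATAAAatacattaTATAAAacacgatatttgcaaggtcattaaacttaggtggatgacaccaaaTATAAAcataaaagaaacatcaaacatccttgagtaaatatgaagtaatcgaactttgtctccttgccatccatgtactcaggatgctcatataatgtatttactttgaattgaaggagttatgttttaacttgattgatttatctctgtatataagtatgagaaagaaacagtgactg
UGT2B7, chr4:69096224-69096473, plus strand: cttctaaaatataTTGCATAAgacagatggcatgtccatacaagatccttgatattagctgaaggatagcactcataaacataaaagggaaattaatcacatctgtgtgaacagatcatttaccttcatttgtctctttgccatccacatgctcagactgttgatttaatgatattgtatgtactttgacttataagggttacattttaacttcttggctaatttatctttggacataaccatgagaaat
UGT2B11, chr4:69214749-69214998, minus strand: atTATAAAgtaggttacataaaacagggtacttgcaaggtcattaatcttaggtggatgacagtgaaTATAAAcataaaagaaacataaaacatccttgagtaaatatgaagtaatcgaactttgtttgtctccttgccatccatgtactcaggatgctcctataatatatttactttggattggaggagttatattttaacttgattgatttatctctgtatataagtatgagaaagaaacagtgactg

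In a global alignment of these 4 regions, UGT2B10 and UGT2B11 had the same base in 90.2% of alignment columns. UGT2B15 had 71.3% with UGT2B11, 69.9% with UGT2B10 and 58.4% with UGT2B7. UGT2B7 had 62.7% with UGT2B10 and 63.0% with UGT2B11. Unrelated regions were not aligned, so no share is given for chance. Motifs were searched on both strands, here and in the 35116 regions of the same length in the table. The TATA box letters TATAAA occurred 3 times in UGT2B10 and 2 times in UGT2B11, all at least 179 bases before the start, and in 10.7% of all regions. Letters of the C/EBP motif, TTGCNNAA, occurred once, in UGT2B7, and in 9.05% of all regions. Those for STAT (TTCNNNGAA) and AP-1 (TGANTCA) were not in these 4 windows and were each in 6.57% of all regions. A loose form of the NF-kB motif, GGG and CC with any 5 bases between, was not in them either and was in 54.4% of all regions. No matches overlapped each other. A match of letters is a description and not a bound site.

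The median log2 difference of the 7 genes was 0.07 in g2_1 and -0.17 in g3_4, beside 0.03 for all transcript clusters in each. That median falls among the other 5 genes and does not show the 2 large differences. Only 3 of the 7, UGT2B17, UGT2B15 and UGT2B4, had a mean over 9 arrays above the first quartile of row means, and UGT2B17 and UGT2B15 passed it through their control arrays.

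**Figure D2:**
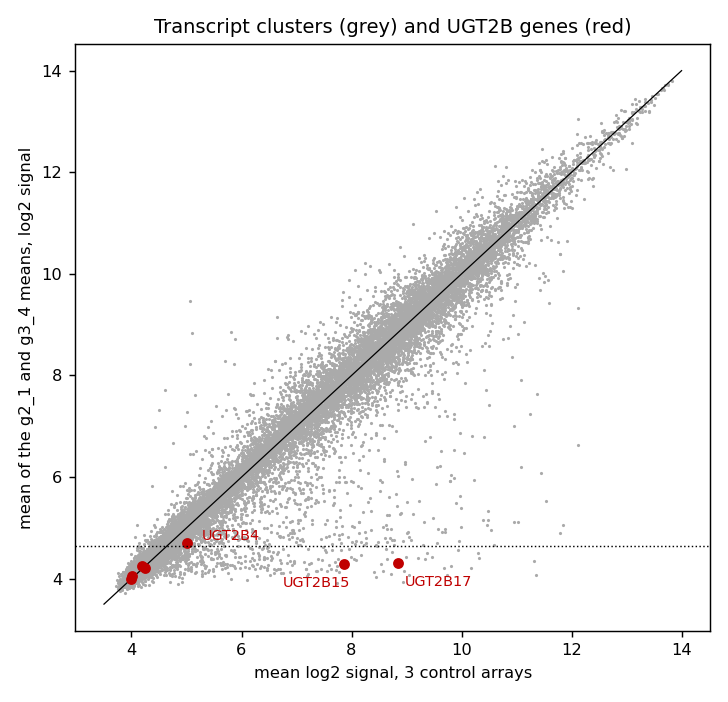
Mean log2 signal on the 3 control arrays (x axis) against the mean of the g2_1 and g3_4 means (y axis) for the tested transcript clusters in grey and the UGT2B genes in red; the line marks equal values and the dotted line the first quartile at 4.64. UGT2B17 and UGT2B15 lie far under the line of equal values at the low end of the y axis, while the other 5 genes lie near the line.

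The 2 clones were compared with each other as well. UGT2B17 differed by 0.06 (g2_1 minus g3_4, interval -0.38 to 0.51) and UGT2B15 by 0.12 (interval -0.39 to 0.63). Through the pooled spread these 2 intervals include the wider spread of the control arrays, so they are too wide for the clone arrays. In limma 0 of the 7 genes was called between the clones, against 0.0431% of all transcript clusters. UGT2B7 was 4.23, 4.22 and 4.55 in g2_1 and 4.04, 4.02 and 4.15 in g3_4, a difference of 0.26 (interval 0.02 to 0.50). UGT2B10 and UGT2B28 were likewise higher on every g2_1 array than on any g3_4 array, by 0.12 and 0.13 in their means. Such separation, with g2_1 higher, was seen in 3 of 7 members and in 5.99% of all transcript clusters, and these members' values are all near the low end of the arrays. The interval of UGT2B7 is not adjusted for the number of clusters, so no difference between the clones is read from it.

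Gene order on chromosome 4 was taken from RefSeq, with no coordinates of the array's own, since its build is not given in the sources used here. UGT2B17 and UGT2B15 lie next to each other at 1 end of the cluster, with 0 protein-coding genes between them. UGT2B10 follows, then UGT2A3, which is no member and was not analysed here, and then UGT2B7, UGT2B11, UGT2B28 and UGT2B4. The 20 nearest measured named genes, 10 on each side, showed 0 rises and 0 falls in both clones in limma, and in single comparisons 0 had an unadjusted p under 0.05 in g2_1 and 1 in g3_4. Their median difference in the clones averaged was 0.07, beside 0.035 for all clusters. For 17 of the 20 the control mean was itself under the first quartile, among them the genes nearest to the family, the sulfotransferase genes SULT1B1 and SULT1E1 on one side and the protease gene TMPRSS11E on the other. Of the neighbours with clear signal, YTHDC1, which encodes a reader of methylated RNA, had 9.0 ± 0.14 (SD, n = 3) in the control, against 9.01 ± 0.17 for g2_1 and 8.88 ± 0.12 for g3_4. UBA6, an enzyme that activates ubiquitin, had 8.44 ± 0.05, 8.27 ± 0.13 and 8.15 ± 0.21. The centromere gene CENPC had 7.95 ± 0.09, 8.07 ± 0.10 and 8.05 ± 0.09. Of 691 named genes measured on chromosome 4, 24 (3.47%) were called lower in both clones, the pair included, beside 2.9% of all clusters.

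**Figure D3:**
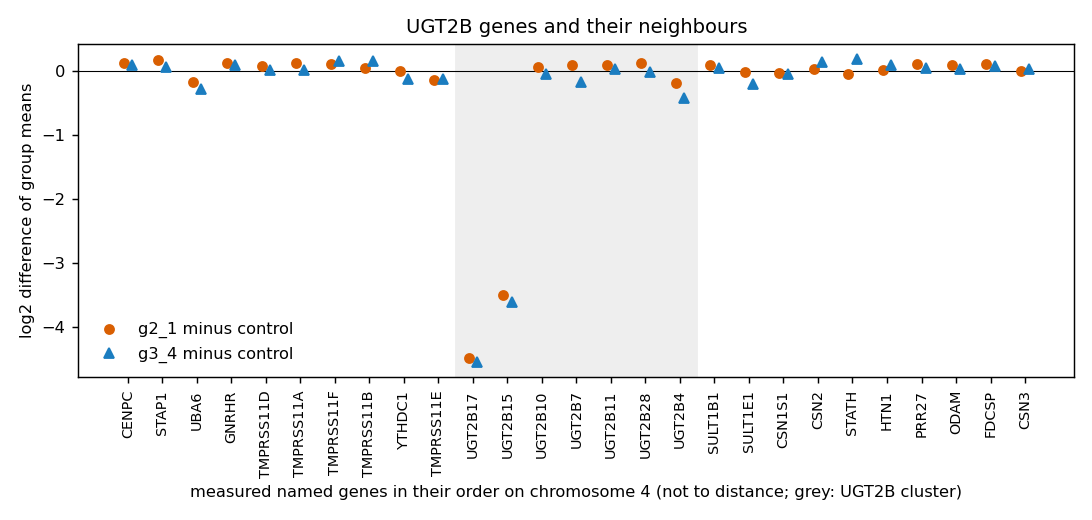
Log2 difference of group means from control (y axis) in g2_1 (circles) and g3_4 (triangles) for measured named genes in their order on chromosome 4 (x axis, not to distance), with the UGT2B cluster shaded. UGT2B17 and UGT2B15 lie at -3.50 or lower in both clones, and all other genes shown lie between -0.42 and 0.19.

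The genes closest to UGT2B17 in pattern over the 9 arrays, by Pearson's r among named genes outside the family, were SORL1, CAMK4, CACHD1, ISLR and FZD6, each with r = 0.999. SORL1 encodes a sorting receptor, CAMK4 a calcium-dependent kinase and FZD6 a receptor for Wnt proteins. They lie on chromosomes 11, 5, 1, 15 and 8. CAMK4, for example, had 9.97, 8.91 and 9.25 on control arrays 1, 2 and 3 and 4.29 to 4.78 on the clone arrays. In all 5, as in UGT2B17, control array 1 was the highest and control array 2 the lowest. Choice by r over the same arrays favours this order, so nothing is read from it. UGT2B15 had r = 0.997, which ranked 16 among named genes. The arrays fall into a high and a low set for such genes, and 110 named genes had r of at least 0.99, and the 9 points of each r share this gap and the same arrays.

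**Figure D4:**
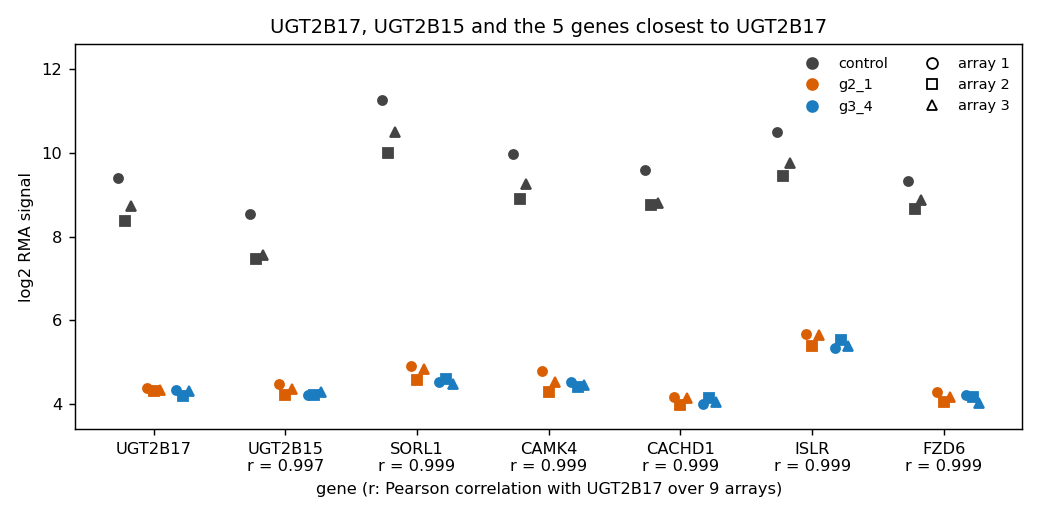
Log2 RMA signal (y axis) of UGT2B17, UGT2B15 and the 5 genes closest to UGT2B17 by Pearson's r over 9 arrays (x axis), with colours for groups and marker shapes for array numbers. Each gene is high on the 3 control arrays and low on the 6 clone arrays; heights of different genes are from different probes and are not compared.

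Genes around the glucuronidation step were then counted, and a gene was taken to have risen or fallen if limma gave it an adjusted p under 0.05 in each clone and the same direction in both. Over all transcript clusters 4.48% rose and 6.97% fell by this rule. Of 15 other UGT genes, 3 were named on the array here, UGT3A1, UGT3A2 and UGT8, and none of these 3 passed in limma (0 at an unadjusted p under 0.05 in either clone). Their values stayed between 4.07 and 5.14 on all arrays. The other 12, which are the UGT1A genes and UGT2A1, UGT2A2 and UGT2A3, were not analysed here, so nothing is said of their levels.

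Of 13 genes that supply, carry or use up UDP-glucuronic acid or remove glucuronides, 4 rose and 0 fell, beside 4.48% and 6.97% of all clusters. The list median was 0.16 in the clones averaged beside 0.035 for all clusters. ABCG2, an export pump that also carries glucuronides, rose by 0.83 (SE 0.13, adjusted p = 0.0017 in limma) in g2_1 and by 0.65 (SE 0.13, adjusted p = 0.0072) in g3_4. UXS1, which uses up UDP-glucuronic acid by turning it into UDP-xylose, rose by 0.61 and 0.56 (SE 0.10 each). SLC35D1, which carries UDP-glucuronic acid into the endoplasmic reticulum, rose by 0.49 and 0.62 (SE 0.13 each). GUSB, the lysosomal enzyme that splits glucuronides, rose by 0.34 and 0.41 (SE 0.10 each). For all 4, every clone array lay above every control array, as in 9.7% of all transcript clusters. The rule that picked these 4 genes used the same arrays, so this separation is no added support. The rise of SLC35D1 did not pass without any 1 of the g2_1 arrays or without control array 1, where the larger adjusted p of the clones in limma reached 0.106. That of GUSB passed in 9 of 19 alternatives and was lost without any 1 clone array, without control array 2 or 3, without the arrays numbered 1 and with only the groups compared, with an adjusted p up to 0.12. UGDH, which makes UDP-glucuronic acid, had 9.26 ± 0.17 (SD, n = 3) in the control, against 9.61 ± 0.11 for g2_1 and 9.36 ± 0.17 for g3_4 and did not pass. SLC35B1 and PGM1 did not pass either, with averaged differences of 0.16 and 0.14.

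Of 26 measured genes of steroid metabolism, 2 fell and 0 rose, beside 6.97% and 4.48% of all clusters. The list median was -0.03. CYP1B1, a cytochrome P450 that hydroxylates oestrogens, had 9.44, 8.24 and 8.24 on the control arrays and 4.17 to 4.64 on the clone arrays. Its difference from control was -4.16 (SE 0.28, adjusted p = 2.9e-06 in limma) in g2_1 and -4.33 (SE 0.28, adjusted p = 2.2e-06) in g3_4. CYP19A1, the aromatase that turns androgens into oestrogens, had 8.15, 6.79 and 7.23 in control cells and 5.15 to 5.72 in the clones. Its difference was -1.75 (SE 0.28, adjusted p = 0.0015 in limma) in g2_1 and -2.02 (SE 0.28, adjusted p = 5.8e-04) in g3_4. For both, all clone arrays lay below all control arrays, as in 10.6% of all transcript clusters, and control array 1 was the highest, as for UGT2B17. Both were picked by their falls on the same arrays, so this separation is no added support. The share of all clusters with control array 1 highest was not counted, so nothing is read from that order. PAX5 had it too, with 7.77, 7.08 and 7.08 on control arrays 1, 2 and 3, while HSD17B11 had its lowest control value, 10.46, on array 1. HSD17B11, HSD17B10 and HSD17B4, which encode hydroxysteroid dehydrogenases, had the highest levels among the genes that did not pass, with averaged differences of 0.43, -0.50 and -0.23. These list counts moved with the setting: with the replicate number as a block HSD17B10 passed as lower (larger adjusted p of the clones 0.0233 in limma) and CYP11A1 as higher, and without control array 1 HSD17B12 passed as lower (averaged difference -1.07 with all arrays) and CYP11A1 as higher. SRD5A1, the reductase that makes dihydrotestosterone, the androgen on which UGT2B15 and UGT2B17 act, had 8.37 ± 0.10 (SD, n = 3) in the control, against 8.25 ± 0.10 for g2_1 and 8.16 ± 0.14 for g3_4 and did not pass; it was named here after its values were seen.

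Of 25 transcription factors known to act on UGT2B genes, 17 were measured under their symbols, and the other 8 were not analysed here. Of the 17, 1 rose and 2 fell, beside 4.48% and 6.97% of all clusters, with a list median of 0.17. AHR, the receptor for dioxin-like ligands, had 11.02 ± 0.18 (SD, n = 3) in the control and fell in both clones, with differences of -1.15 (SE 0.17, adjusted p = 9.1e-04 in limma) in g2_1 and -1.29 (SE 0.17, adjusted p = 4.3e-04) in g3_4. PBX2, a homeobox factor, also fell, with differences of -0.47 and -0.59 (SE 0.11 each), and this did not pass without the arrays numbered 1 or without g2_1 array 1 (larger adjusted p of the clones up to 0.0835 over all alternatives). VDR, the vitamin D receptor, rose by 0.50 and 0.47 (SE 0.09 each). NFE2L2, ARNT and JUN had averaged differences of -0.03, -0.22 and 0.23 and did not pass. CEBPB (averaged difference -0.40) passed as lower without control array 1, and FOXA1 (0.50) as higher without g2_1 array 2 or array 3. After centring arrays on their median the counts were 3 risen and 2 fallen here, 1 and 2 in steroid metabolism and 4 and 0 in the list around UDP-glucuronic acid. Each gene named as risen or fallen kept its direction.

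**Figure D5:**
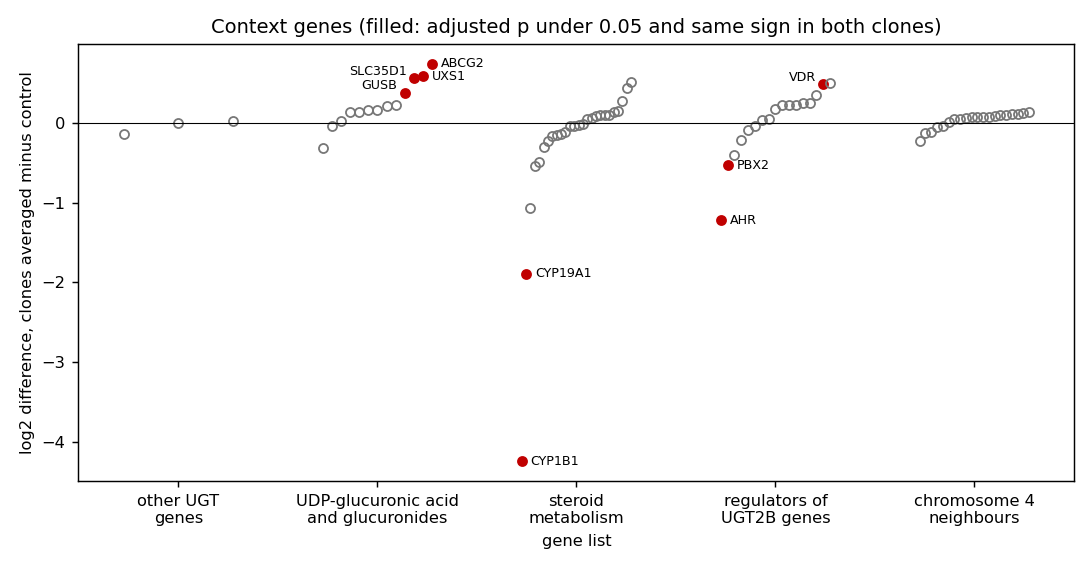
Log2 difference of the clones averaged minus control (y axis) for each measured gene of 5 lists (x axis), sorted within a list; filled points passed the rule for a rise or a fall in both clones. CYP1B1 (-4.24), CYP19A1 (-1.89) and AHR (-1.22) are the filled points with the largest falls. The 3 measured other UGT genes and the chromosome 4 neighbours have no filled point.

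Markers of tissues in which UGT2B genes are best known were checked beside these levels. In limma 0 of 10 hepatocyte, 0 of 6 intestinal and 0 of 5 prostate epithelial markers rose or fell in both clones, and at an unadjusted p under 0.05 the counts were 0, 0 and 0 in g2_1 and 1, 0 and 0 in g3_4. Of the hepatocyte list HPX, the gene of hemopexin, had 6.97 ± 0.14 (SD, n = 3) in the control, APOA1 5.98 ± 0.10 and SERPINA1 5.21 ± 0.54, and TTR had 4.72 ± 0.03. The other 6 of 10, ALB, the gene of serum albumin, among them with 4.61 ± 0.07, had a control mean under the first quartile. The summed log2 level of the hepatocyte list was 48.33 to 49.65 on control arrays and 48.03 to 49.23 on clone arrays. The ranges were 29.68 to 30.00 and 29.43 to 30.41 for the intestinal list and 24.80 to 25.38 and 25.33 to 25.85 for the prostate list. Of 5 measured B cell genes, PAX5 and POU2AF1 fell and 3 did not pass, at summed levels of 31.42 to 32.86 on control arrays and 29.17 to 29.96 on clone arrays. The part of these B cell and Hodgkin cell marker shifts in the UGT2B values was not tested.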

How the data were processed

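The 9 arrays were grouped by their titles (3 control, 3 g2_1, 3 g3_4). The values deposited by the authors are log2 signals. The submitters' processing notes name RMA and version 4.0 of Transcriptome Analysis Console; the build is not given in the sources used here, and no scanner files were used. Precision is limited by the number of arrays.

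The 20893 rows with mapped IDs entered a limma fit (version 3.58.1, R 4.3.3; 1 coefficient per group, 9 arrays, two-sided), with Benjamini-Hochberg adjustment over all of them; 555 unmapped rows were left out. Each row had 1 spread shared by the 3 groups, so SEs and intervals do not follow the SD of a single group. The fit was tested on simulated data with 200 changed rows. Gene order, names and promoter sequences came from RefSeq (GRCh38.p14); regions were aligned with Biopython 1.88. The members and lists were chosen with earlier results of these data known. Named were the 7 members, the 5 genes with highest r to the member of largest range, and per list up to 4 risen, 4 fallen and 3 others of highest level; markers of cell types were read as lists. Deviations from the group means correlated between same-numbered g2_1 and g3_4 arrays (0.435, 0.191 and 0.31 across rows). Same-numbered control and clone arrays also correlated, at 0.0426 to 0.298, so the number may pair arrays across all 3 groups. Alternatives were 19 settings of scale, filter, variance model, samples and pairing. Some items are not reported here.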

Additional observations from a re-analysis of the deposited data

How the results depend on the processing

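UGT2B17 and UGT2B15 were called lower in all 106 fits against control in which they were tested under the alternatives. Their log2 differences ranged from -4.73 to -4.22 and from -3.69 to -3.16 in g2_1, and from -4.79 to -4.28 and from -3.81 to -3.26 in g3_4, with leaving out each array in turn included. The exception is the filter at the median of mean level, which left out all 7 genes, since the mean includes the clone arrays: 0 members could then be called in g2_1, g3_4 or the clones averaged, and 525, 535 and 519 transcript clusters were called in place of 873, 884 and 871. Between the clones 9 transcript clusters were called, and 21 with array weights, 18 with only the groups compared and 21 without the arrays numbered 1. With the replicate number as a block the count was 15. Leaving out each array in turn gave 4 to 21, with 4 without g2_1 array 2, 5 without g3_4 array 3 and 21 without control array 1. No UGT2B gene was called between the clones under any of these settings. The block changed no call of a UGT2B gene against control. Deviations of control arrays 1, 2 and 3 correlated with those of same-numbered clone arrays at 0.285, 0.0426 and 0.183 for g2_1. For g3_4 these correlations were 0.298, 0.0565 and 0.257. Of calls with the clones averaged, 77.3% were lower on the deposited scale and 67.4% after centring. Of the members' log2 differences under all alternatives, 473 moved by less than 1 SD of the arrays and 8 by more, all of them of UGT2B10, UGT2B11 or UGT2B7. The alternative on rows with the lowest mean was not run, as each gene had 1 row, and for the clones averaged the fit of only the groups compared is the fit of all arrays.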
